A study of Homo sapiens with 12 samples.

Results

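miR-4443 is a human microRNA (miRNA), and its probe, hsa-miR-4443, was 1 of 798 on a NanoString panel, which counts barcoded probes on each RNA directly, with no amplification step. Total RNA came from 2 human acute myeloid leukaemia cell lines of monocytic type, MOLM-14 and THP-1. Both lines were transduced with a lentivirus, which carried either a short hairpin RNA against MUC1, a mucin of the cell surface that is studied as a driver of this leukaemia, or a scrambled hairpin. The 4 groups of line by hairpin held 3 samples each, called silenced and scrambled here, and all of them were lentivirally transduced. The labels give neither the sequence nor the number of the hairpins, and MUC1 itself was not among the values, so the silencing has no check in them. The probe was chosen because its counts were higher in silenced than in scrambled MOLM-14, so its values in that line are a description without a test. The silenced and scrambled THP-1 samples took no part in that pattern, and the hairpin effect there was tested. Earlier results of these data were known when the probe was chosen, so that test is not fully independent of them.

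A miRNA guides an Argonaute protein to messenger RNAs, mainly through its seed, the bases 2 to 8 from its 5′ end, and lowers the output of the messages it pairs with. miR-4443 is a human miRNA first catalogued from deep sequencing, and work in other human cells has described TRAF4, a signalling adaptor, and NCOA1, a nuclear receptor coactivator, as its targets. Messenger RNAs were not measured here, so no target is described.

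The mature miR-4443 of RefSeq (GRCh38.p14) lies at chr3:48196572-48196588 on the plus strand, and its hairpin at chr3:48196564-48196616. No other gene of the RefSeq table overlaps the hairpin, and the nearest protein-coding genes on either side are CDC25A, a phosphatase that activates cyclin-dependent kinases, and CAMP, the precursor of the antimicrobial peptide cathelicidin. The mature form is shown first because its seed sets which messages it can pair with (seed in capitals), and the hairpin second (mature form in capitals).
miR-4443: uUGGAGGCguggguuuu
MIR4443 hairpin: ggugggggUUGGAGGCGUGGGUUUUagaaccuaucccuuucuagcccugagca

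The mature form spans 17 bases, positions 9 to 25 of the 53-base hairpin. Names of 706 of the 798 probes matched the RefSeq table and gave 730 mature sequences, of which the shortest was 17 bases, the median 22 and 13, miR-4443 included, no longer than 17. Its GC content was 52.9%, and 34.0% of the matched sequences reached that or more. No other sequence matched on the panel had its seed, nor did any other of the 2370 mature names in the table, so it has no seed family here.

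The longest run of bases that any other matched panel miRNA shared with miR-4443 was 8, in 3 miRNAs. They are shown because a shared run bears on how far each probe can be told from the others, with the run in capitals.
miR-1180-3p: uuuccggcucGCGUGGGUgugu
miR-378b: acuggacUUGGAGGCagaa
miR-6724-5p: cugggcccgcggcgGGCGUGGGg
The run of miR-1180-3p (GRCh38.p14, chr17:19344513-19344534, minus strand) matches bases 7 to 14 of miR-4443. That of miR-6724-5p (chr21:8249515-8249537, plus strand) matches bases 6 to 13. That of miR-378b (chr3:10330262-10330280, plus strand) matches bases 1 to 8 and so holds the whole seed, but at bases 8 to 15 of miR-378b, outside that miRNA's own seed. Whether signal is shared between these probes was not tested.

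Library totals ran from 9002 to 20418 counts. A total of 654 of 798 probes stayed below 30 counts in every sample, and 630 of these, above 1 and under 30 counts throughout, are called background probes, with library means of 10.1 to 15.1 counts. Silenced MOLM-14 replicate 2 stood apart, with Pearson r over all probes' counts of 0.654 and 0.697 with replicates 1 and 3 against 0.961 between those. For silenced MOLM-14 replicates 2 and 3 the source names end in MUC2 and MUC3, where the titles and the transduction label have MUC1, and the titles were followed. Scrambled MOLM-14 replicates 2 and 3 agreed within sampling noise (chi-square per degree of freedom 1.08, p = 0.0521), unlike the other pairs of that group, and were counted as 1 sample in its mean ± SD. On the same measure silenced THP-1 replicates 1 and 2 (0.990) and 2 and 3 (1.03) did not differ significantly either, and scrambled THP-1 replicates 1 and 3 differed over the tested probes (1.51) but not over all probes (1.07). Silenced THP-1 replicates 1 and 3 differed over all probes (1.09, chi-square p = 0.0318) but not over the tested probes (0.954). All of these were kept apart, although silenced THP-1 replicates 1 and 2 agreed more closely than the averaged pair. The n and SD of the groups are therefore not fully alike. The fits below kept all 12 libraries, and with scrambled MOLM-14 replicates 2 and 3 averaged the log2 fold change of miR-4443 was 1.36 in MOLM-14 and -0.66 in THP-1, where it did not pass. With silenced THP-1 replicates 1 and 2 averaged the THP-1 value was -0.78 (edgeR adjusted p = 0.068), and with all 3 averaged it was -0.67. The labels do not say whether replicates were separate cultures, so the spread behind each p-value may be technical. Of the myeloid marker miRNAs, miR-223-3p had 8 to 53 counts and miR-155-5p 20 to 94, but miR-142-3p, abundant in blood cells, had only 10 to 23 and miR-146a-5p 16 to 31. Of 13 markers of epithelial, erythroid, liver, muscle and neural cells, 12 stayed below 30 counts, and the liver marker miR-122-5p was at 1 in 11 samples and at 52 in silenced MOLM-14 replicate 3, the library with the highest count of miR-4443. Its part in that count was not tested.

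In MOLM-14 miR-4443 had 107, 88 and 128 deposited counts in silenced replicates 1, 2 and 3. In scrambled replicates 1, 2 and 3 it had 41, 51 and 58. The groups did not overlap, as the choice of the probe implies, with 58 the highest scrambled and 88 the lowest silenced count. The means were 107.7 ± 20.01 (SD, n = 3) and 47.8 ± 9.55 (n = 2). With the scrambled replicates kept apart the scrambled mean was 50 ± 8.54 (n = 3). The highest background probe of these libraries was at 25 to 29 counts. Each of these 6 counts was over 30 and so lay above it by definition, since background probes stay under 30. The counts were 3.24 to 12.1 times the background mean of their library.

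In THP-1 the order was the opposite. Scrambled replicates 1, 2 and 3 had 63, 89 and 99 counts of miR-4443. Silenced replicates 1, 2 and 3 had 47, 39 and 14. The deposited counts of the groups again did not overlap, with means of 83.7 ± 18.6 in scrambled and 33.3 ± 17.2 in silenced cells (SD, n = 3 each). With silenced replicates 1 and 2 averaged into 1 the silenced mean was 28.5 ± 20.5 (n = 2). Without scaling, 58 of the 67 tested probes had a log2 fold change below 0 in THP-1, and 47.8% passed as lower. How many of the 67 had groups that did not overlap was not counted, so the lack of overlap is not read as particular to miR-4443. Silenced replicate 3 came from the library with the lowest total, and its 14 counts were 1.38 times the background mean there, with 122 of the 630 background probes at or above it. miR-4443 was therefore not separable from background in that library, and the size of the THP-1 difference is uncertain.

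**Figure D1:**
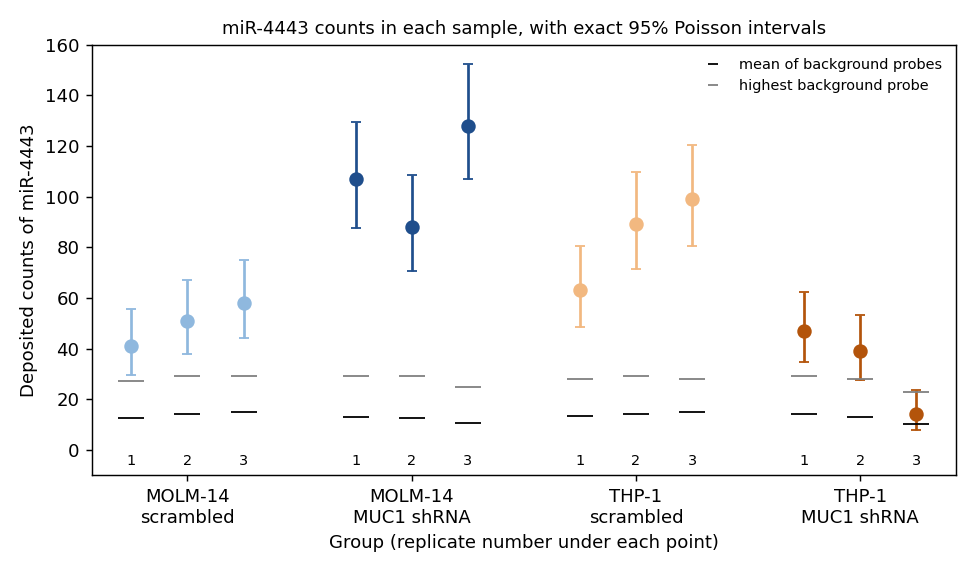
Deposited counts of miR-4443 (y axis) in the 12 samples, by group, with replicate numbers under the points. Vertical bars are exact 95% Poisson intervals, which cover counting error only, and short lines mark the mean and the highest of the 630 background probes of each library. The silenced MOLM-14 points lie at 88 to 128 above the scrambled ones at 41 to 58, and the silenced THP-1 points at 14 to 47 below the scrambled ones at 63 to 99.

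Ordered by mean deposited count, the groups were silenced MOLM-14, scrambled THP-1, scrambled MOLM-14 and silenced THP-1. The first pair of neighbours overlapped (88 to 128 against 63 to 99), as did the last (41 to 58 against 14 to 47). The counts thus did not separate the groups of either pair, which does not show that they are equal. Scrambled THP-1 and scrambled MOLM-14 did not overlap. With TMM scaling, which lets most probes keep their level between lanes, the order was the same, at 120 ± 39.7 (n = 3), 68.0 ± 13.97 (n = 3), 46.2 ± 3.92 (n = 2) and 43.9 ± 17.2 (n = 3) scaled counts. With the geometric mean of the 100 highest probes as the scale the last pair changed places. Silenced THP-1 was then at 47.3 ± 20.1 (n = 3) and scrambled MOLM-14 at 44.6 ± 1.40 (n = 2), or 44.2 ± 1.19 with its replicates kept apart. With silenced THP-1 replicates 1 and 2 averaged as well, that group was at 41.5 ± 24.4 (n = 2) and the pair kept its order. The change of places thus depended on which replicates were averaged. These comparisons between lines share samples with the contrast that chose the probe and were given no test.

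Counting error was set against the spread between MOLM-14 replicates. The exact 95% Poisson interval of the TMM-scaled counts ran from 99.6 to 147 for silenced MOLM-14 replicate 1, from 63.9 to 98.1 for replicate 2 and from 133 to 189 for replicate 3. The interval of replicate 2 lay below the other 2 on this scale, while on deposited counts, at 70.6 to 108, it overlapped both (87.7 to 129 and 107 to 152). The scrambled MOLM-14 intervals all overlapped, with limits between 32.0 and 66.5. Probe counts are taken as independent molecules in these intervals, which cover counting error only.

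As a share of all counts in its library, miR-4443 held 0.847%, 0.509% and 1.15% in silenced MOLM-14 replicates 1, 2 and 3, with 95% Wilson limits of 0.702 to 1.02%, 0.414 to 0.627% and 0.970 to 1.37%. In scrambled MOLM-14 the shares were nearly equal, at 0.316%, 0.315% and 0.331%. In THP-1 they were 0.368%, 0.436% and 0.547% in scrambled and 0.373%, 0.338% and 0.156% in silenced replicates 1, 2 and 3. The share of silenced THP-1 replicate 1 thus exceeded that of scrambled replicate 1, and the THP-1 groups overlapped on this scale.

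miR-4443 was among the most abundant miRNAs of the panel in 11 of the 12 libraries. It ranked 4th of 798 in silenced MOLM-14 replicates 1 and 3, behind the same miRNAs in both: let-7b-5p, a tumour-suppressive let-7 member (467 and 586 counts), miR-181a-5p, known from lymphocyte development (404 and 407), and miR-191-5p (114 and 129). These are named after their values were seen. In silenced MOLM-14 replicate 2 it ranked 19th, in a library where 88 probes reached 30 counts against 33 and 28 in replicates 1 and 3. In scrambled MOLM-14 it ranked 18th, 23rd and 20th in replicates 1, 2 and 3.

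In THP-1 the ranks did not follow the counts. miR-4443 ranked 16th, 11th and 7th in scrambled replicates 1, 2 and 3, and 12th in both silenced replicates 1 and 2, where its counts were lower. A lower count thus stood at about the same rank. In silenced replicate 3 it ranked 166th, level with 34 other probes at 14 counts. The number of probes at 30 counts or more was 54 to 65 in scrambled THP-1 and 14 to 32 in silenced THP-1.

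**Figure D2:**
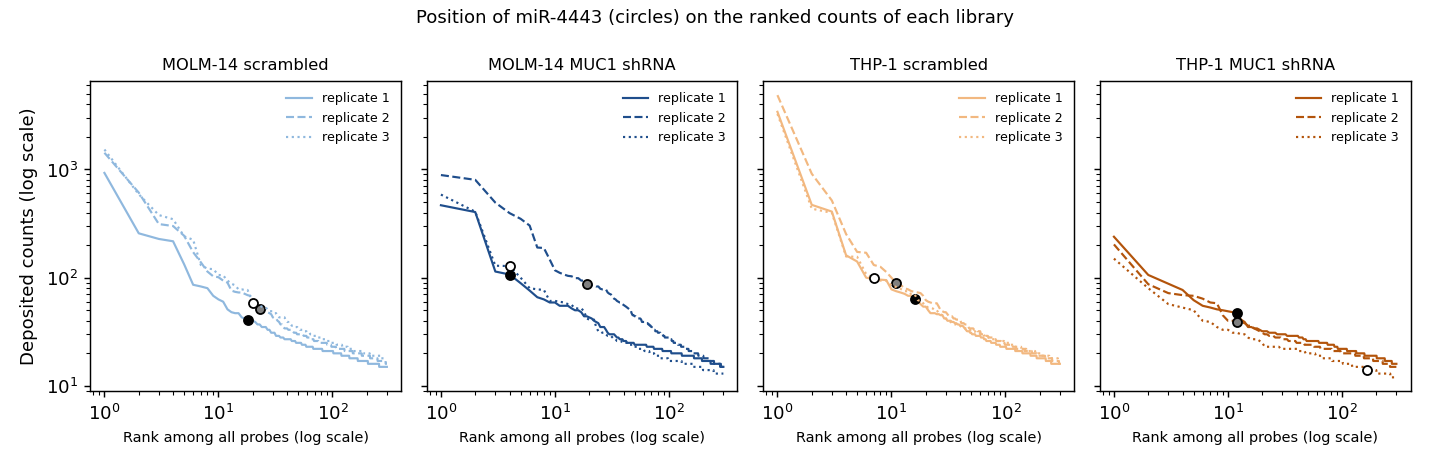
Deposited counts (y axis, log scale) against rank (x axis, log scale) for the 300 highest probes of each library, with 1 panel per group and 1 line per replicate. Circles mark miR-4443, filled black, grey and white for replicates 1, 2 and 3. It sat at rank 4 in 2 of the 3 silenced MOLM-14 libraries and at rank 166 in silenced THP-1 replicate 3, and the silenced THP-1 curves start at 150 to 239 counts against 3259 to 4860 in scrambled THP-1.

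The hairpin effect on miR-4443 was then followed through the scaling between lanes. In MOLM-14 the ratio of mean deposited counts, silenced over scrambled with all samples kept apart, was 2.15, and it was 2.65 with TMM factors, 2.61 with library totals, 2.63 with the geometric mean of the 100 highest probes and 2.54 with the background probes. Every silenced MOLM-14 sample stayed above every scrambled one under all 5. The fitted log2 fold change was 1.10 ± 0.36 (SE) without scaling and between 1.34 ± 0.30 and 1.40 ± 0.28 with the 4 scalings, while the median of the 67 tested probes lay between -0.26 and -0.034. Under each of the 5, 3 of the 67 probes had a higher log2 fold change in MOLM-14. Here 16.4% of the tested probes passed the threshold and 5.97% passed as higher (edgeR quasi-likelihood with TMM). The probe was chosen on this contrast, so nothing is read from its place among them.

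Leaving out silenced replicate 2, the library that stood apart, gave a larger MOLM-14 difference, 1.63 ± 0.22 on the log2 scale with TMM. Leaving out replicate 3 gave 1.15 ± 0.30 and leaving out replicate 1 gave 1.39 ± 0.31. The value thus stayed above 1 without either of the replicates whose source names differ from their titles. Subtracting each library's background mean from its count left 94.0, 75.3 and 117 counts in silenced MOLM-14 replicates 1, 2 and 3. It left 28.4, 37.0 and 42.9 in scrambled ones, a ratio of 2.65 between the means, equal to that with TMM. In THP-1 the size changed, with means of 20.8 in silenced and 69.5 in scrambled cells after subtraction. Scrambled over silenced was then 3.34, against 1.55 with TMM, and the lowest silenced THP-1 value was 3.85.

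In THP-1 the direction was the same under the 5 scalings but the call was not. With TMM factors, the main setting, the scaled counts were 53.5, 54.3 and 24.0 in silenced and 55.3, 65.8 and 83.0 in scrambled replicates 1, 2 and 3. The groups were separated only by the narrow step from 54.3 to 55.3. The log2 fold change was -0.61 ± 0.29 (95% interval -1.21 to -0.017, not adjusted), with an edgeR quasi-likelihood adjusted p of 0.0873 over the 67 tested probes, so the difference did not pass the threshold of 0.05. With library totals it was -0.62 ± 0.29 (edgeR adjusted p = 0.0874) and with the top 100 probes -0.56 ± 0.33 (edgeR adjusted p = 0.183). The groups overlapped under both. These fits took their spread from all 4 groups, silenced MOLM-14 replicate 2 included. With TMM and only the 2 THP-1 groups fitted, the value was -0.58 ± 0.21 (edgeR adjusted p = 0.0127). Without silenced MOLM-14 replicate 2 it was -0.59 ± 0.21 (edgeR adjusted p = 0.0174). In these 2 fits 36 and 34 of the 67 probes passed in THP-1.

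With the background probes as the scale, silenced THP-1 had 43.3, 39.3 and 18.2 scaled counts of miR-4443 in replicates 1, 2 and 3. Scrambled THP-1 had 62.3, 82.3 and 87.9. These groups were well apart, and the log2 fold change of -1.19 ± 0.30 passed, with an edgeR quasi-likelihood adjusted p of 0.00364. Deposited counts without scaling gave -1.32 ± 0.37 (edgeR adjusted p = 0.00379). Without silenced replicate 3, where the count was at background, the value was -0.34 ± 0.28 with TMM (edgeR adjusted p = 0.335) and -0.91 ± 0.29 with background scaling (edgeR adjusted p = 0.0193). Under TMM it was -0.21, -0.35 and -0.46 without scrambled replicates 3, 2 and 1, none of which passed, and under background scaling it passed without any 1 of the 12 libraries (-1.41 to -0.91). In an exact permutation test of the mean log2 counts, two-sided, deposited counts, TMM and background scaling gave p = 0.1, the smallest that 3 samples against 3 allow, library totals gave p = 0.2 and the top 100 probes p = 0.3.

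The background for that call was high. In THP-1 40.3% of the 67 tested probes passed with TMM, 23.9% as lower, and 49.3% passed with background scaling, 46.3% as lower. Without scaling 50.7% passed and 47.8% as lower. The call for miR-4443 under background scaling was thus 1 of 31 lower calls among the 67 probes. The median log2 fold change of all tested probes was -0.031 with TMM and -0.61 with background scaling, and miR-4443 lay 0.58 below that median under both (a difference of -0.58), and between -0.59 and -0.56 below it under all 5 scalings. Of the 67 probes, 17 or 18 had a lower log2 fold change than miR-4443 under each. A scaling factor moves all probes of a library alike, so this distance and place are no sign of stability.

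**Figure D3:**
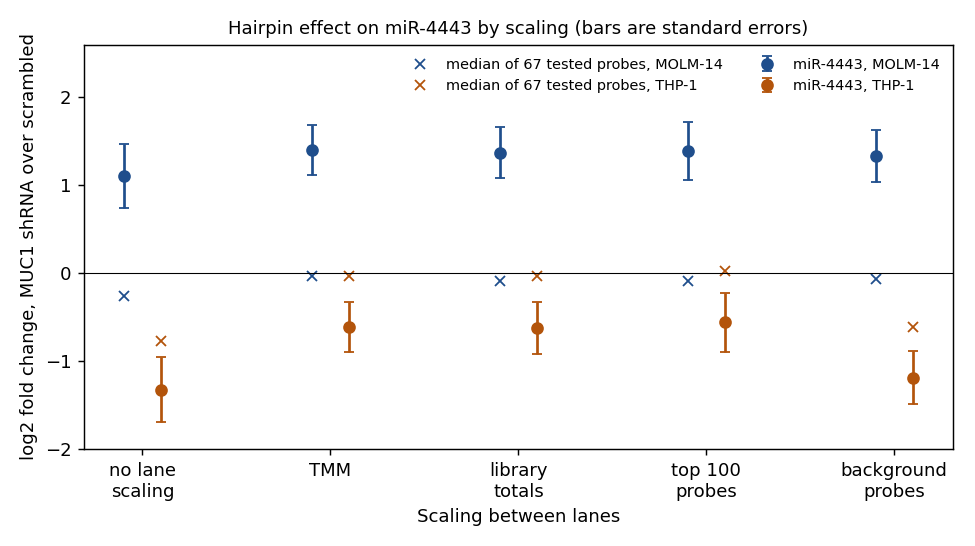
Fitted log2 fold change of miR-4443, silenced over scrambled (y axis), under 5 scalings between lanes (x axis), in MOLM-14 (blue) and THP-1 (orange), with standard errors as bars. Crosses mark the median of the 67 tested probes. In MOLM-14 the values lie between 1.10 and 1.40, and in THP-1 they move from -0.61 with TMM to -1.19 with background probes together with the median.

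The 5 tested probes most like miR-4443 over the 12 samples were found by Pearson r of log2 TMM-scaled counts, as a description. The points share libraries and scaling factors, and part of each r comes from the silenced MOLM-14 group, on which miR-4443 was chosen. miR-188-5p was the most like (r = 0.80, Spearman rho = 0.64), with 66, 94 and 77 counts in silenced and 47, 71 and 88 in scrambled MOLM-14 replicates 1, 2 and 3. Without the silenced MOLM-14 samples its r was 0.48. With TMM it did not pass in either line (log2 fold change 0.48 ± 0.20 in MOLM-14 and -0.14 ± 0.20 in THP-1, edgeR adjusted p = 0.101 and 0.586), with background scaling it fell in THP-1 (-0.71 ± 0.23, edgeR adjusted p = 0.0193), and its range across groups was narrower than that of miR-4443.

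miR-21-5p, a widely expressed miRNA raised in many cancers, came next (r = 0.74, rho = 0.69), with log2 fold changes of 0.64 ± 0.21 in MOLM-14, which passed with TMM and did not with background scaling (edgeR adjusted p = 0.0339 and 0.125), and -0.39 ± 0.21 in THP-1, which did not pass with TMM but did with background scaling (-0.97 ± 0.25, edgeR adjusted p = 0.0037). miR-25-3p, of a paralog of the miR-17-92 cluster, had r = 0.64 (rho = 0.43) through THP-1, where it fell (-0.60 ± 0.24, edgeR adjusted p = 0.0464), with 0.037 ± 0.23 in MOLM-14. miR-128-1-5p had r = 0.60 (rho = 0.59) and passed in neither line with TMM.

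miR-150-5p, a lymphoid miRNA that targets MYB, had r = 0.63 (rho = 0.43), but the likeness was within MOLM-14. Over the 6 MOLM-14 samples r was 0.94, and over the 6 THP-1 samples -0.65. Its counts were 63, 85 and 80 in silenced and 11, 12 and 18 in scrambled MOLM-14 replicates 1, 2 and 3, and 12 to 24 in all THP-1 samples, the level of background probes. miR-4443 differed from it in the scrambled groups, where miR-4443 had 41 to 58 counts in MOLM-14 and 63 to 99 in THP-1. In THP-1 1 of these 5 probes fell with TMM and 4 fell with background scaling, where 23.9% and 46.3% of all tested probes fell. Their median log2 fold change there was -0.39 and -0.97, against -0.031 and -0.61 over all tested probes. With background scaling 4 of these 5 probes stayed among the 5 most like, and miR-342-3p (r = 0.71) took the place of miR-150-5p. With TMM and without the silenced MOLM-14 samples, r was 0.42 for miR-21-5p and 0.54 for miR-25-3p. It was 0.24 for miR-128-1-5p and -0.41 for miR-150-5p.

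At the other end of the 66 probes compared, miR-1180-3p was the least like miR-4443 (r = -0.58, rho = -0.70), and it is one of the 3 that share an 8-base run with it. It was singled out after its values were seen. It had 25, 24 and 26 counts in silenced and 31, 48 and 49 in scrambled MOLM-14 replicates 1, 2 and 3. In THP-1 it had 77, 72 and 57 in silenced and 36, 33 and 29 in scrambled replicates 1, 2 and 3. Silenced samples were thus below scrambled ones in MOLM-14 and above them in THP-1, the reverse of miR-4443, with log2 fold changes of -0.48 ± 0.21 (edgeR adjusted p = 0.130) and 1.83 ± 0.21 (edgeR adjusted p = 1.54e-07).

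The other 2 miRNAs with such a run did not follow miR-4443 either. miR-378b, which holds the seed letters of miR-4443, had 4 to 27 counts in the 12 samples and was not tested. miR-6724-5p had 27, 78 and 21 counts in silenced and 42, 69 and 51 in scrambled MOLM-14 replicates 1, 2 and 3, so it was high in silenced replicate 2, where miR-4443 was at its lowest for that group. Its log2 fold changes were -0.18 ± 0.32 in MOLM-14 and -0.031 ± 0.35 in THP-1, and neither passed (edgeR adjusted p = 0.811 and 0.938).

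**Figure D4:**
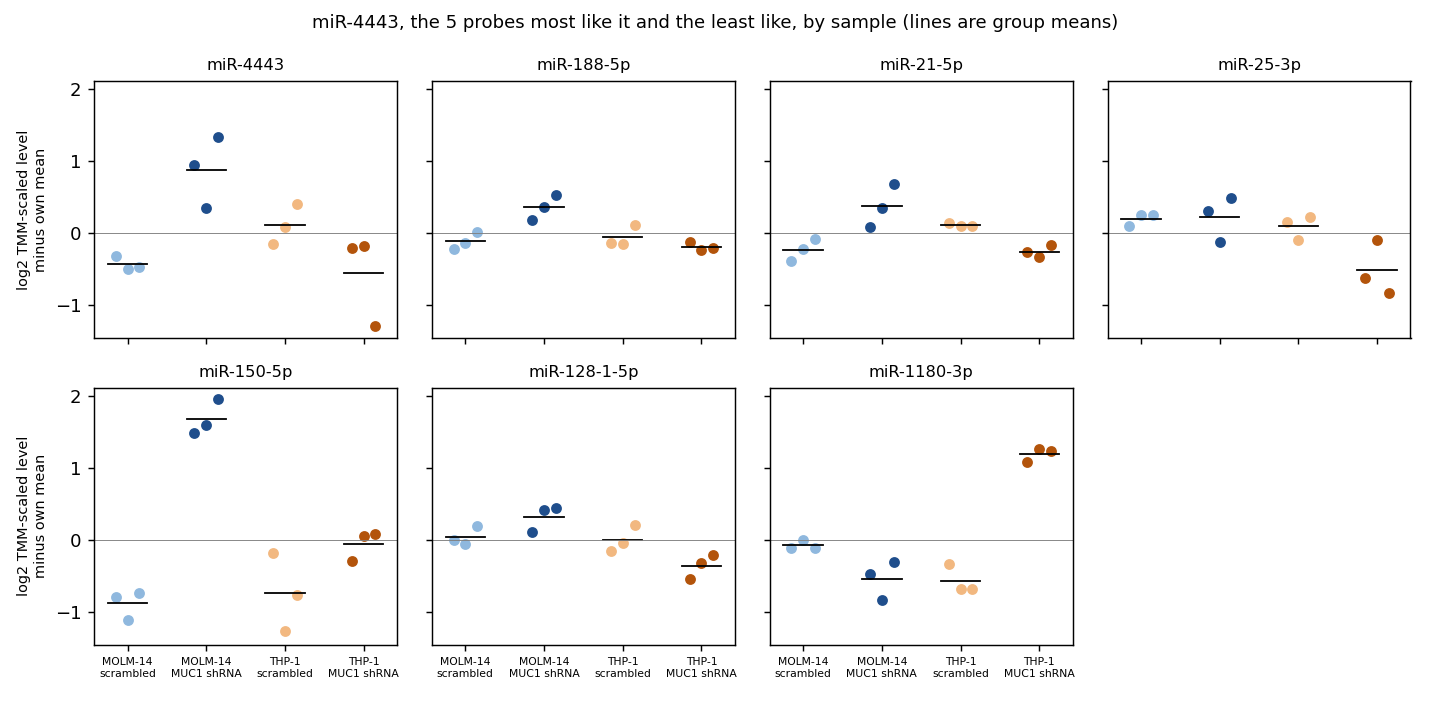
Log2 TMM-scaled level of 7 probes, each minus its own mean over the 12 samples (y axis), in the 4 groups (x axis). Points are samples and short lines are group means. miR-4443 and the 5 probes most like it have their highest group mean in silenced MOLM-14, while miR-1180-3p is highest in silenced THP-1. For miR-25-3p scrambled MOLM-14 is nearly level with silenced MOLM-14.

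Probes of miRNA genes near MIR4443 on chromosome 3 were compared next, from a list of 14 names, most of them placed within 5 Mb by the RefSeq table. Of these 10 were measured, and 3 passed the count filter. By that table the precursor gene of miR-191-5p lies 0.82 Mb away and that of let-7g-5p 4.07 Mb. miR-191-5p fell in both lines, from 257, 300 and 347 counts in scrambled to 114, 111 and 129 in silenced MOLM-14, and from 408, 517 and 397 to 25, 27 and 25 in THP-1. Its log2 fold changes were -1.08 ± 0.19 and -3.30 ± 0.22 (edgeR adjusted p = 0.000228 and 2.02e-11). In MOLM-14 it therefore went the opposite way to miR-4443. let-7g-5p fell too (-0.89 ± 0.29 in MOLM-14 and -1.58 ± 0.33 in THP-1, edgeR adjusted p = 0.0339 and 0.000383), the former with TMM only (-0.94 ± 0.33, edgeR adjusted p = 0.0739 with background scaling). The third, miR-566, was on the list by hand, with no distance from the RefSeq table, and passed in neither line (0.095 ± 0.29 and 0.59 ± 0.29). In both lines 0 of the 3 rose and 2 fell, with a median log2 fold change of -0.89 in MOLM-14 and -1.58 in THP-1, against -0.034 and -0.031 over all tested probes. As background, 10.4% of tested probes fell in MOLM-14 with TMM and 8.96% with background scaling, and in THP-1 23.9% and 46.3% fell.

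miR-4443 is one of the miRNAs that were numbered late, taken here as a number of 3000 or more. Of 84 such probes 70 stayed below 30 counts in every sample, a share close to the 654 of 798 over the whole panel, and 128 counts of miR-4443 in silenced MOLM-14 replicate 3 was the highest value of all 84. Besides miR-4443, 5 were tested, and in MOLM-14 none of the 5 passed (edgeR quasi-likelihood), with a median log2 fold change of 0.066. miR-4531, with 24, 99 and 29 counts in silenced and 29, 27 and 33 in scrambled MOLM-14, had its high value in silenced replicate 2 alone. In THP-1 1 of the 5 rose, miR-6721-5p (0.73 ± 0.24, edgeR adjusted p = 0.0178), and it did not pass with background scaling (0.15 ± 0.22). With that scaling 0 rose and 2 fell, miR-3065-5p and the joint probe miR-4454/miR-7975. As background, 16.4% of tested probes rose in THP-1 with TMM and 2.99% with background scaling, where 46.3% fell, so the 2 of 5 that fell are no more than that share.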

How the data were processed

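The deposited table holds counts of 798 probes in each of 12 samples. That these are counts was read from the values, which are whole numbers of at least 1 with totals of 9002 to 20418. RNA was isolated with a Qiagen kit and counted on the NanoString assay, per the labels' protocols. For the counting software, background correction, lane scaling and build, what the authors used is not given in the sources used here. With such totals, counting error is large for most probes.

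Groups follow the titles. The 67 probes that reached 30 counts in 3 or more samples were scaled with TMM. A quasi-likelihood fit of the 4 groups in edgeR 4.0.16 under R 4.3.3, tested on simulated data, gave fold changes, standard errors and p-values, which were adjusted over these 67 by the method of Benjamini and Hochberg. Alternatives were other scalings, filters, DESeq2 1.42.0, limma 3.58.1, a replicate block and left-out libraries. Named were miR-4443, the 5 probes of highest Pearson r with it (log2 TMM-scaled counts, prior count 2), tested probes of miRNA genes within 5 Mb or on a hand-written list, probes of the same seed, and up to 6 probes of late-numbered miRNAs. The 3 miRNAs with the longest shared run were added later. Members and lists were chosen with earlier results of these data known. Sequences are from RefSeq (GRCh38.p14).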

Additional observations from a re-analysis of the deposited data

Results flagged for a closer look

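The difference of miR-4443 between silenced and scrambled samples had opposite signs in the 2 lines. On deposited counts, which were not scaled, every silenced MOLM-14 sample (88 to 128) lay above every scrambled one (41 to 58), and every silenced THP-1 sample (14 to 47) lay below every scrambled one (63 to 99). The THP-1 direction was common without scaling. There 58 of the 67 tested probes had a log2 fold change below 0, and 47.8% passed as lower. How many of them also had groups that did not overlap was not counted, so the lack of overlap in THP-1 is not read as particular to miR-4443. The fitted log2 fold change in THP-1 minus that in MOLM-14 was -2.02 with TMM scaling. This difference was not tested, because the probe was chosen for its higher counts in silenced MOLM-14. With library totals or the top 100 probes as the scale, the THP-1 groups overlapped.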

How the results depend on the processing

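The MOLM-14 difference stayed positive in all 27 alternatives, between 1.10 without scaling and 1.76 with 10 counts subtracted, and between 1.15 and 1.63 without 1 library at a time. In the 12 added settings with background scaling and without 1 library it ran from 1.08, without silenced MOLM-14 replicate 3, to 1.496. The THP-1 value was lower in silenced cells in 26 of 27. It passed without lane scaling (-1.32), with background scaling (-1.19), without the count filter (-1.14) and with only the 2 THP-1 groups fitted (-0.58, edgeR adjusted p = 0.0127). Without 1 library at a time it ran from -0.86 to -0.21, and passed only without silenced MOLM-14 replicate 2 (-0.59, edgeR adjusted p = 0.0174). It turned to 0.067 (edgeR adjusted p = 0.839) with a filter at 50 counts. That filter left 32 probes to set the TMM factors, of which 10 passed as higher and 11 as lower in THP-1. Why the sign changed was not tested. Background scaling without each library, chosen after seeing the data, passed in THP-1 each time: -1.41, -1.31 and -0.91 without silenced THP-1 replicates 1, 2 and 3, -1.32, -1.15 and -1.09 without scrambled ones, and -1.19 to -1.18 without a MOLM-14 library. Same-numbered samples did not deviate together in every pair (r from -0.41 to 0.41, and 3 of 6 silenced samples correlated best with their own number). With the repeat number as a replicate block the values were 1.39 in MOLM-14 and -0.60 in THP-1 (edgeR adjusted p = 0.149), and 14 and 26 probes passed against 11 and 27. The number of probes that passed was 21 in MOLM-14 without silenced replicate 1, and 15 in THP-1 with all 3 silenced samples averaged into 1, whose spread is then taken from the other groups. At these depths a count near 14 cannot be told from background, which limits the THP-1 size.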
